A study of Mus musculus with 12 samples.

Results

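The genes described here sense RNA and DNA in the wrong place or shape, or restrain that sensing. They were measured in whole mouse embryos at E10.5. The list holds 10 genes. They are the RNA helicases Ddx58, Ifih1 and Dhx58, their adaptor Mavs, the endosomal receptor Tlr3, the transcription factor Irf3, the kinase Eif2ak2, the Z-form nucleic acid binder Zbp1, the editing enzyme Adar and the DNA exonuclease Trex1. All probe sets of the array whose single annotated symbol was on the list were taken. This gave 23 of 45101 probe sets, for 9 of the 10 genes, out of 18193 genes measured in all. Trex1 was annotated only on a probe set that it shares with another symbol, so no value is given for it. Where a gene had several probe sets, the one with the highest 12-array mean stood for it.

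The 12 embryos fall into 4 genotypes of 3. Double embryos were homozygous for the acd allele of Acd and lacked p53. The acd embryos were homozygous for the acd allele, p53 embryos (p53-/-) lacked p53, and wt embryos were wild type. Acd encodes TPP1, part of the shelterin complex that covers telomeres, and p53 stops damaged cells from dividing or kills them. The design crosses both genes to separate the p53-dependent from the p53-independent response to acd. The labels call the replicates biological. The labels used here do not describe litter, strain or the nature of the alleles, and the p-values measure the spread between these embryos.

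Values are log2 expression values from RMA, so a difference of 1 is a doubling of the signal. Acd read 8.36 ± 0.11 in double and 8.26 ± 0.05 in acd embryos, against 8.91 ± 0.12 in p53 and 8.99 ± 0.01 in wt embryos (SD, n = 3 each). Both genotypes with the acd allele thus had lower Acd in every embryo (limma, adjusted p = 0.0113 for acd and 0.0492 for double against wt). Where the probes lie relative to the mutation was not analysed here. Double replicates 1 and 2 stood apart on the whole array. Their median correlations with the other arrays were 0.972 and 0.987, and those of the other 10 arrays were at least 0.995. The median SD between embryos over 13501 tested genes was 0.209 in double, 0.0725 in acd, 0.0953 in p53 and 0.0588 in wt embryos. Results on the sensor genes that rest on these 2 embryos are given with and without them. Markers of the tissues of a midgestation embryo were high in all 12 arrays: embryonic globin Hba-x lay at 14.0 to 14.4, the heart troponin Tnnt2 at 9.53 to 10.6 and the neural progenitor factor Sox2 at 10.7 to 11.1.

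As background, RIG-I (from Ddx58) and MDA5 (from Ifih1) bind double-stranded RNA in the cytosol, RIG-I preferring ends that carry a triphosphate and MDA5 long duplexes. Both signal through MAVS on mitochondria to the kinase TBK1 and to IRF3, which turns on type I interferon. Interferon then acts back on many genes, among them those of the RNA sensors themselves, PKR (from Eif2ak2) and the inducible form of ADAR. ADAR and TREX1 are brakes: ADAR edits adenosine to inosine in cellular duplex RNA so that MDA5 does not read it, and TREX1 degrades DNA in the cytosol. In human cells with failing telomeres, ZBP1 and MAVS have been linked to the sensing of telomeric RNA.

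IRF factors bind DNA elements built around repeats of GAAA, so the annotated start regions of the genes were searched for AANNGAAA, a minimal IRF element, and for GAAANNGAAA, 2 such repeats. Both strands were searched, and each match to the longer motif also contains the shorter one. Windows from 250 bases before to 50 bases after the start came from RefSeq on build GRCm38.p6, which held 11 windows for 8 of the 10 genes. AANNGAAA lay in a window of 5 of the 8 genes (Ddx58, Ifih1, Tlr3, Eif2ak2 and Adar), and in a window of 26.7% of all 27025 genes. GAAANNGAAA lay in 3 of the 8 (Ddx58, Ifih1 and Eif2ak2), and in a window of 3.99% of all genes. Of all 32851 windows 23.9% held the shorter motif and 3.44% the longer. The windows of the 4 genes with an unadjusted p under 0.05 in double against p53 embryos are shown beside that of Irf3, which holds neither motif. They are Ifih1 (chr2:62646206-62646505, minus strand), Eif2ak2 (chr17:78882523-78882822, minus strand), Ddx58 (chr4:40239776-40240075, minus strand), the third annotated start of Adar (chr3:89730468-89730767, plus strand) and Irf3 (chr7:44997398-44997697, plus strand). Each is written on the strand of its gene, and capitals mark the matches.
Ifih1: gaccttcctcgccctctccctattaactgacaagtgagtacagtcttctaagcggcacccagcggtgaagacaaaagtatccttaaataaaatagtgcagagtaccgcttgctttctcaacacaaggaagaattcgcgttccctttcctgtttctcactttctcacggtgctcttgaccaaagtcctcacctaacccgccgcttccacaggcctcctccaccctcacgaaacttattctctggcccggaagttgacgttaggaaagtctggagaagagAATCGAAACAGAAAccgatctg
Eif2ak2: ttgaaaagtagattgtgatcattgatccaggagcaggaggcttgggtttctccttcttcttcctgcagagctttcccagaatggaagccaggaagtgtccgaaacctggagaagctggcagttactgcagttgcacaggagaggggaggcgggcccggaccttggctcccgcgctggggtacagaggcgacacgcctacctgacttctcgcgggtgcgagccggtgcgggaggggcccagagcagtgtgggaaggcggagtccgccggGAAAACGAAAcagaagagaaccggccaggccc
Ddx58: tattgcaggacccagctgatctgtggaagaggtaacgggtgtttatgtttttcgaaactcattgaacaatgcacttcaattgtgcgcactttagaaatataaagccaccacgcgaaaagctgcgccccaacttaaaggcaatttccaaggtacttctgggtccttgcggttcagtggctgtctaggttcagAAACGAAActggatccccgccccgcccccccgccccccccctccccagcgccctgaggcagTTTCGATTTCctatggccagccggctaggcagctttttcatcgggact
Adar: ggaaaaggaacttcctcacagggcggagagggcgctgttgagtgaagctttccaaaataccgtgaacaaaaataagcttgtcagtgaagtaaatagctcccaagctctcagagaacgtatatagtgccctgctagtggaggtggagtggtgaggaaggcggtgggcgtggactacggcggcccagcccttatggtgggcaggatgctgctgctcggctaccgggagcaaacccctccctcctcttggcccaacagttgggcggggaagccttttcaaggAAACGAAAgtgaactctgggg
Irf3: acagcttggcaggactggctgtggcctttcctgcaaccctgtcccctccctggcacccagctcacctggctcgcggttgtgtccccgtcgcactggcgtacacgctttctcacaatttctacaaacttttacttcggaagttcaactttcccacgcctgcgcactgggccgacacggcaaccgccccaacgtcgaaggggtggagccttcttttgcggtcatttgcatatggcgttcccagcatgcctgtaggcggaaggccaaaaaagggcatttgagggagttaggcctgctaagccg
The longer matches read GAAACAGAAA in Ifih1, GAAAACGAAA in Eif2ak2 and, on the opposite strand, GAAATCGAAA in Ddx58, and each lies just downstream of the annotated start. The first 2 annotated starts of Adar, both of Trex1 and the window of Mavs held neither motif. A match describes letters in these windows and says nothing of binding.

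Among the cytosolic RNA helicases, Ifih1 and Ddx58 showed one pattern: high in double replicates 1 and 2, and at the level of the other genotypes in double replicate 3. Ifih1 read 9.18, 9.21 and 5.52 in the 3 double embryos, 5.63, 5.91 and 5.56 in acd, 5.54, 5.73 and 5.70 in p53, and 5.58, 5.61 and 5.39 in wt embryos. These first 2 double embryos lay 3.66 and 3.69 log2 units above the wt mean, double replicate 3 lay 0.01 below it, and the acd, p53 and wt embryos overlapped. In bulk RNA of whole embryos, more expressing cells and more RNA per cell cannot be told apart. The Ifih1 difference was 2.32 ± 0.73 in double against p53 embryos (log2 ± SE, 95% interval 0.72 to 3.91, 4.98-fold). It did not pass limma's test over all genes (adjusted p = 0.463). Values of the other genotypes lay close to the array medians of 5.32 to 5.40, where background can compress differences. Against acd it was 2.27 ± 0.73 (adjusted p = 0.371), and against wt 2.45 ± 0.73 (adjusted p = 0.447).

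Ddx58 read 7.24, 7.42 and 4.99 in double embryos, 5.04, 4.93 and 4.96 in acd, 4.95, 4.91 and 4.86 in p53, and 4.89, 4.86 and 4.99 in wt embryos. The 10 arrays other than double replicates 1 and 2 lay within 4.86 to 5.04, below the array medians. The difference is therefore given as a bound, and the double mean was at least 2.28-fold higher than in p53, 2.29-fold than in acd and 2.29-fold than in wt embryos (limma, adjusted p = 0.463, 0.371 and 0.447). The bound allows for low signal and not for the spread between the double embryos. A second Ddx58 probe set repeated the pattern of the embryos, at 5.91, 7.22 and 4.21 in double embryos against 4.08 to 4.53 in the acd, p53 and wt embryos. The last Ddx58 probe set, all below the array medians, read 4.90, 4.28 and 3.86 in double embryos against 3.83 to 4.04 in the other genotypes.

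Dhx58 encodes LGP2, a helicase that lacks the signalling domain of RIG-I and MDA5 and tunes them. Its values were low: 5.07, 4.57 and 3.98 in double embryos, 3.86, 3.85 and 3.74 in acd, 3.93, 3.99 and 4.21 in p53, and 3.96, 3.93 and 3.81 in wt embryos. Only double replicate 1 exceeded the 40th percentile of its array, so the gene failed the filter on low values. The first 2 double embryos were the highest of the 12, all below the array medians, so no size is given. When all 18193 genes were tested without the filter, its adjusted p in limma was 0.500 for double against p53, 0.407 against acd and 0.481 against wt embryos. On the other 2 Dhx58 probe sets, with genotype means of 3.09 to 3.68, the first 2 double embryos did not stand apart from the rest.

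Tlr3 encodes the receptor for duplex RNA in endosomes, and was low too. It read 4.85, 4.84 and 4.07 in double embryos, 4.09, 4.06 and 3.98 in acd, 3.95, 4.11 and 3.92 in p53, and 4.0, 3.97 and 4.15 in wt embryos. Again the first 2 double embryos were above the other 10, all below the array medians, and the gene failed the filter. Without the filter its adjusted p in limma was 0.500, 0.407 and 0.481 for double against p53, acd and wt embryos. A second Tlr3 probe set was lower still and also had the first 2 double embryos highest. It read 3.87, 3.59 and 3.27 in double embryos against 3.18 to 3.48 in the acd, p53 and wt embryos.

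**Figure D1:**
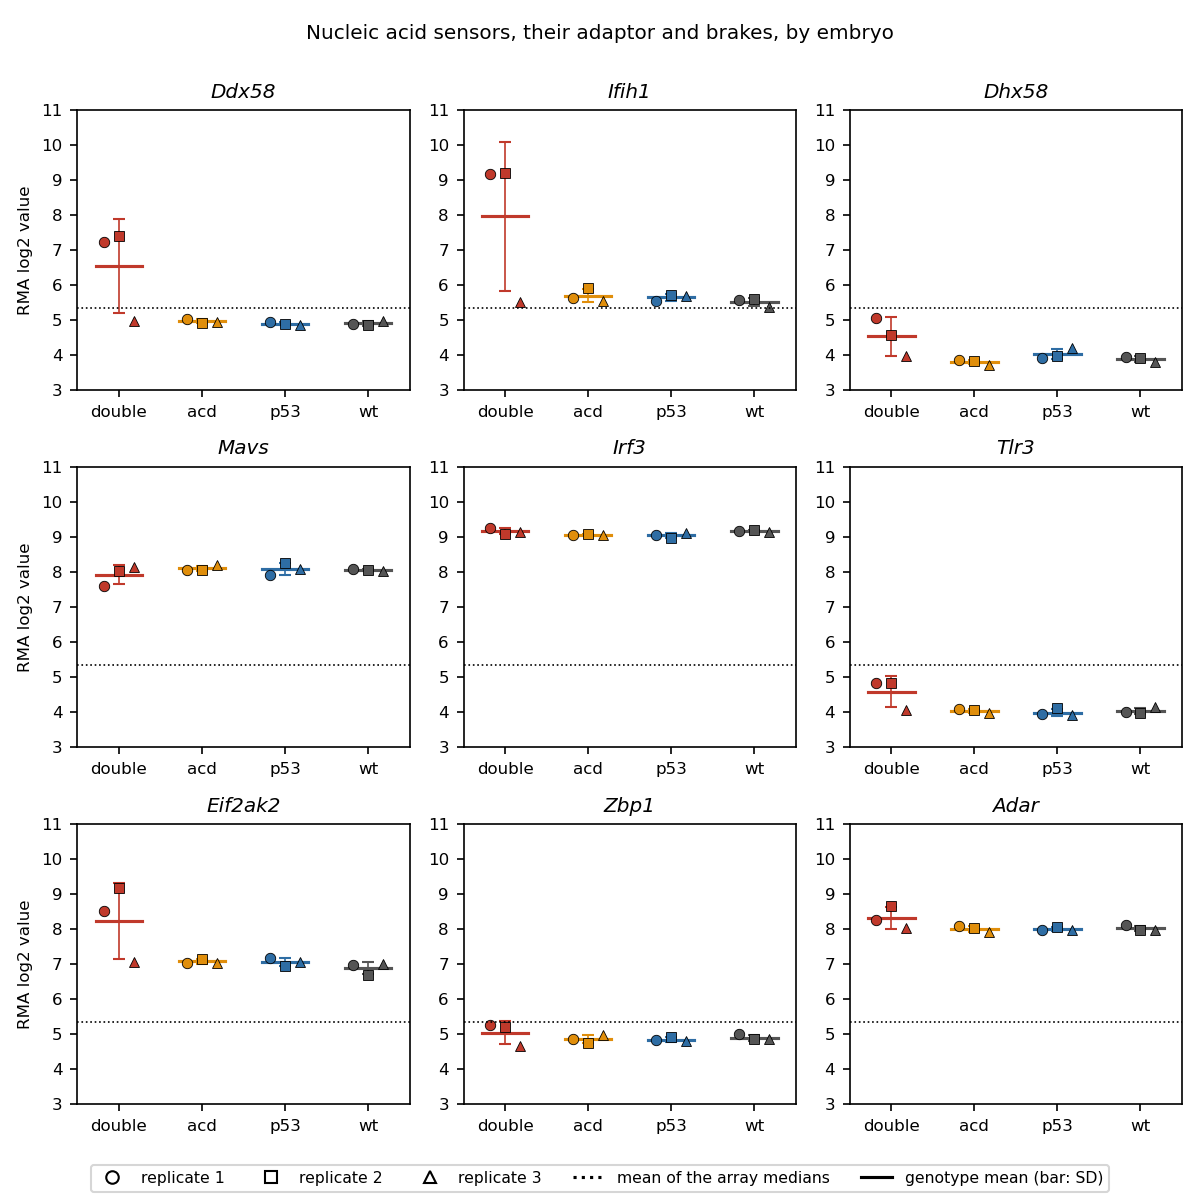
RMA log2 value (y axis) of the 9 measured genes in each embryo, by genotype (x axis). Symbols are single embryos, horizontal lines the genotype means with SD bars (n = 3), and the dotted line the mean of the array medians. Ddx58, Ifih1 and Eif2ak2 are high in double replicates 1 and 2 alone, while Mavs and Irf3 stay near their other values.

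The adaptor and the transcription factor downstream of the helicases were not high in both of those embryos. Mavs read 7.61, 8.04 and 8.13 in double embryos, 8.07, 8.06 and 8.20 in acd, 7.91, 8.25 and 8.09 in p53, and 8.10, 8.05 and 8.02 in wt embryos. Double replicate 1 was the lowest of the 12, and the others overlapped. The Mavs difference was -0.16 ± 0.13 in double against p53 embryos (95% interval -0.44 to 0.12, adjusted p = 0.573 in limma). A second Mavs probe set was lowest in the same embryo, at 6.87.

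Irf3, which MAVS signalling activates at the protein level, read 9.26, 9.10 and 9.16 in double embryos, 9.06, 9.10 and 9.07 in acd, 9.07, 8.97 and 9.11 in p53, and 9.18, 9.20 and 9.15 in wt embryos. Double replicate 1 was the highest of the 12 values, which spanned 0.30 log2 units. The double embryos lay on both sides of the wt embryos, which were all above the acd and p53 embryos. Its difference was 0.13 ± 0.07 in double against p53 embryos (95% interval -0.03 to 0.28, adjusted p = 0.478) and -0.004 ± 0.07 against wt embryos (95% interval -0.16 to 0.15, adjusted p = 0.984). The probe sets used for Mavs and Irf3 carry the maker's _x_ suffix, for probes that may also match other transcripts. The other 3 Irf3 probe sets also showed no pair of high values in double replicates 1 and 2.

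Eif2ak2 encodes PKR, which duplex RNA activates and which then blocks translation through the initiation factor eIF2 alpha. It read 8.51, 9.17 and 7.05 in double embryos, 7.04, 7.16 and 7.04 in acd, 7.19, 6.94 and 7.05 in p53, and 6.98, 6.70 and 7.01 in wt embryos. The first 2 double embryos lay above all others and the third among them. The difference was 1.18 ± 0.38 in double against p53 embryos (95% interval 0.35 to 2.01, 2.27-fold, adjusted p = 0.463 in limma). It was 1.16 ± 0.38 against acd (adjusted p = 0.371) and 1.34 ± 0.38 against wt embryos (adjusted p = 0.447). The other 2 Eif2ak2 probe sets showed the same embryos high, at 7.41, 7.51 and 5.92 and at 7.63, 8.18 and 5.96 in double embryos, while the acd, p53 and wt embryos lay between 5.63 and 6.38 on the first and 5.63 and 6.32 on the second.

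Zbp1, whose protein binds Z-form RNA and DNA and can start necroptosis through RIPK3, was close to the filter. It read 5.26, 5.20 and 4.68 in double embryos, 4.87, 4.75 and 4.99 in acd, 4.83, 4.92 and 4.81 in p53, and 5.01, 4.86 and 4.86 in wt embryos. The first 2 double embryos were the highest of the 12 and the third the lowest, all below the array medians, so no size is given (limma, adjusted p = 0.527 for double against p53). A second probe set of lower mean over the 12 arrays separated those embryos more widely, at 6.01, 5.31 and 4.60 in double embryos against 4.27 to 4.91 in the other genotypes.

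The probe sets of Adar disagreed in size. On the probe set with the highest mean it read 8.26, 8.67 and 8.03 in double embryos, 8.08, 8.02 and 7.92 in acd, 7.98, 8.05 and 7.97 in p53, and 8.11, 7.97 and 7.99 in wt embryos. The first 2 double embryos were the highest and the third lay among the rest. The difference was 0.32 ± 0.13 in double against p53 embryos (95% interval 0.03 to 0.60, adjusted p = 0.463 in limma). A second Adar probe set showed a larger gap, at 6.88, 6.89 and 5.63 in double embryos against 5.25 to 5.65 in the other genotypes. Fitted with every probe set on its own, a choice made after seeing the data, its difference was 1.07 ± 0.27 in double against p53 embryos (adjusted p = 0.529 over 24152 probe sets).

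The third Adar probe set was the exception among all 23. It read 5.91, 6.06 and 5.80 in double embryos against 5.17 to 5.59 in the acd, p53 and wt embryos. All 3 double embryos, replicate 3 included, were thus above all 9 others. Fitted on its own it did not pass either (difference 0.48 ± 0.13 in double against p53, adjusted p = 0.529 in limma). Which transcripts of Adar each probe set reads was not analysed here.

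**Figure D2:**
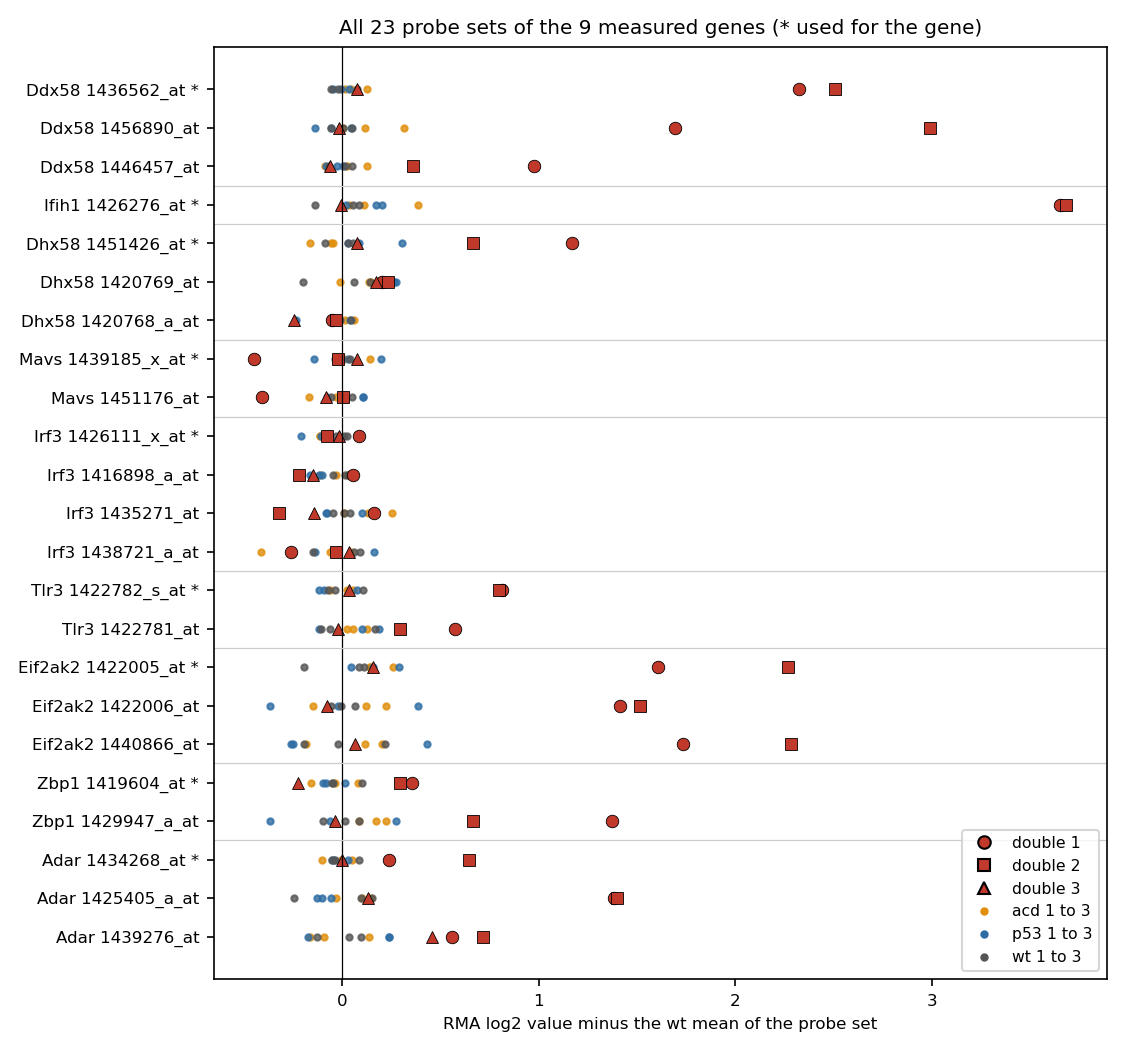
RMA log2 value minus the wt mean of the same probe set (x axis) for all 23 probe sets (y axis, an asterisk marks the one used for a gene). Large symbols are the 3 double embryos and small dots the acd, p53 and wt embryos. Double replicate 3 (triangle) lies between -0.24, on a Dhx58 probe set, and 0.46, on the third Adar probe set, where it is above every dot.

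Of the 10 genes, 7 were tested, and each of the 7 lay above the 40th percentile in all 12 arrays. With all 12 arrays, limma called 0 of the 7 in double against p53 embryos (0.00741% of all genes were called). At an unadjusted p under 0.05 it had 4 of the 7, all higher in double embryos (10.7% of all genes): Ddx58, Ifih1, Eif2ak2 and Adar. Double against acd gave 0 called (0% of all genes) and 4 at the unadjusted level (12.6%). Double against wt gave 0 called (0.0148%) and 4 at the unadjusted level (11.1%). These 3 comparisons share the double embryos and are not independent. The median difference of the 7 was 0.32 against p53, 0.31 against acd and 0.29 against wt embryos, and that of all genes tested was -0.01 in each.

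In the single mutants no gene of the list passed. In acd against wt embryos 0 of 7 were called (0.0148% of all genes) and 0 had an unadjusted p under 0.05 (1.77%). In p53 against wt embryos 0 of 7 were called (0%) and 0 had an unadjusted p under 0.05 (0.726%). The Ifih1 difference was 0.18 (95% interval -1.42 to 1.77) in acd and 0.13 (-1.46 to 1.72) in p53 against wt embryos. Those wide intervals take in the spread of the double embryos, which the fit pools with the rest. For Eif2ak2 the differences were 0.18 in acd (-0.65 to 1.01) and 0.16 in p53 embryos (-0.67 to 0.99). The medians of the 7 were 0.05 in acd and -0.01 in p53 against wt embryos.

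The interaction subtracts the acd against wt difference from that of double against p53, and it tests whether acd acted differently where p53 was absent. It had 0 of 7 called (0% of all genes) and 2 at the unadjusted level, Ddx58 and Irf3 (3.93%). For Ifih1 it was 2.14 ± 1.03 (95% interval -0.11 to 4.39, adjusted p = 0.879 in limma), for Eif2ak2 1.0 ± 0.54 and for Irf3 0.23. The other Irf3 probe sets did not repeat the Irf3 value. Fitted on their own, a choice made after seeing the data, they gave 0.06, -0.21 and 0.05.

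The calls turned on double replicate 3. Without it, 5 of the 7 genes were called higher in double against p53 embryos (6.83% of all genes were), in double against acd (7.38%) and in double against wt (6.13%). They were Ddx58 (adjusted p = 1.48e-08 in limma against p53), Ifih1 (difference 3.54, adjusted p = 1.41e-08), Eif2ak2 (1.78, adjusted p = 0.000149), Zbp1 (adjusted p = 0.0228, no size given) and Adar (0.46, adjusted p = 0.0238). In that fit Mavs (-0.26, adjusted p = 0.185) and Irf3 (0.13, adjusted p = 0.263) did not pass. The interaction then called 3 of the 7 higher, Ddx58, Ifih1 and Eif2ak2 (2.53% of all genes). Each fit without double replicate 3, here and below, compares the 2 embryos that stood apart with the rest. It lacks the double embryo that differed from them. Its adjusted p-values therefore describe these 2 embryos and are no test of the genotype.

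Leaving out double replicate 1 gave differences from p53 embryos of 1.71 for Ifih1, 1.05 for Eif2ak2 and 0.34 for Adar. Leaving out double replicate 2 gave 1.70 for Ifih1, 0.72 for Eif2ak2 and 0.14 for Adar. None of these passed (limma, adjusted p of 0.378 to 0.591).

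With double replicate 3 as the only double embryo, the differences from p53 embryos were -0.14 for Ifih1, -0.01 for Eif2ak2, 0.02 for Adar, 0.05 for Mavs and 0.11 for Irf3, and the median of the 7 was 0.02. For 5 of the 7 tested genes, double replicates 1 and 2 were both above the other 10 arrays, which held for 11.5% of all tested genes.

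**Figure D3:**
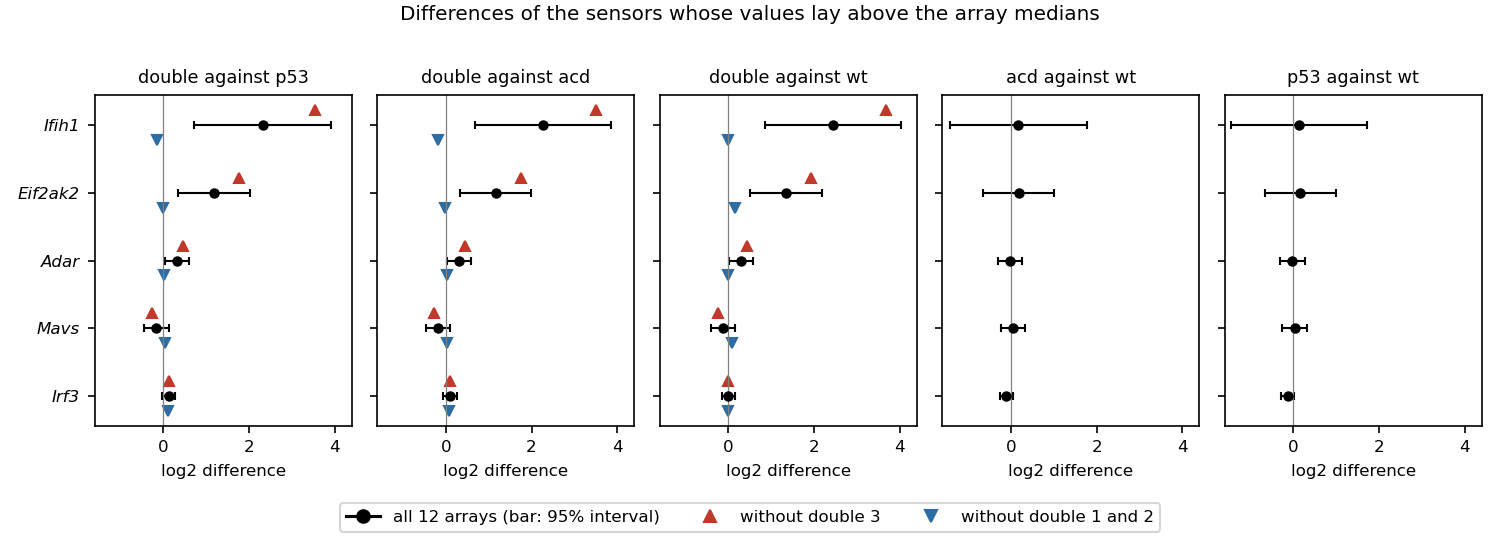
Log2 difference (x axis) of the 5 tested genes whose means lay above the array medians (y axis), for 5 comparisons. Circles are fits to all 12 arrays with 95% intervals, upward triangles fits without double replicate 3, and downward triangles fits without double replicates 1 and 2. Ifih1 in double against p53 lies at 2.32, 3.54 and -0.14 in these 3 fits.

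Genes with the most similar profiles were found by the root mean square (RMS) of the differences between their profiles over the 12 arrays, each profile taken relative to its wt mean. For Ddx58 the nearest were Dtx3l (RMS 0.0919), Trim21 (0.122) and Lgals9 (0.167). Dtx3l, for example, read 9.03, 9.10 and 6.54 in double embryos against 6.41 to 6.79 in the other genotypes. For Ifih1 they were Gbp7 (0.179), Irgm2 (0.195) and Trim34a (0.200), and Gbp7 read 9.02, 8.96 and 5.31 in double embryos against 4.99 to 5.60 in the other genotypes. For Eif2ak2 they were Helz2 (0.233), Nfix (0.277) and Trim21 (0.294), and for the low Dhx58 they were Alox5ap (0.120), Col9a2 (0.121) and Cthrc1 (0.132).

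The other genes of these pathways were read from lists, and limma called none of them in double against p53 embryos. Of all 13501 genes tested, 6480 were higher in double than in p53 embryos. An unadjusted p under 0.05 in either direction held for 10.7% of all genes. Without double replicate 3, 6.83% of all genes were called higher. Interferon-stimulated effectors were higher in double embryos for 6 of 6 tested, all 6 with an unadjusted p under 0.05. All 6 were called higher without double replicate 3. Rsad2, an antiviral enzyme, read 10.72, 10.49 and 6.95 in double embryos against 6.27 to 6.88 in the other genotypes (difference from p53 2.90 ± 0.73, adjusted p = 0.463 in limma). The difference was 4.12 without double replicate 3 and 0.46 without double replicates 1 and 2. Bst2, a membrane tether of viruses, read 11.27, 10.31 and 6.29 in double embryos, against 5.91 to 6.54 in the other genotypes. Usp18, which removes ISG15 from proteins, was at least 7.83-fold higher in double than in p53 embryos, and Ifit2, which binds viral RNA, differed by 0.79, or by 0.55 without double replicate 2.

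The OAS and RNase L arm makes and reads an oligoadenylate signal of duplex RNA. Of its 5 tested genes 4 were higher, and 3 had an unadjusted p under 0.05 (10.7% of all genes). Without double replicate 3 the fit called 4 higher (6.83% of all genes). Oas1a read 10.07, 9.13 and 6.26 in double embryos against 5.98 to 6.28 in the other genotypes (difference from p53 2.41 ± 0.68, adjusted p = 0.463 in limma), and differed by 3.53 without double replicate 3 and by 0.19 without double replicates 1 and 2. Oas1b was at least 1.57-fold higher, Oasl1 stayed below the array medians, and Abce1, the RNase L inhibitor, had a difference of -0.27, and of -0.07 without double replicate 1. Oasl2, below the filter, read 8.55, 8.10 and 3.75 in double embryos against 3.35 to 3.78 in the other genotypes and was named after its values were seen.

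The list of signalling genes between sensors and interferon genes was split: 9 of 18 tested were higher. Of these 2, and 1 lower gene, had an unadjusted p under 0.05 (10.7% of all genes), and the median difference from p53 was 0.01. Without double replicate 3 the fit called 3 higher and 0 lower (6.83% and 6.18% of all genes). Trim25, the ubiquitin ligase that acts with RIG-I, read 10.52, 10.23 and 8.32 in double, 8.19, 8.19 and 8.09 in acd, 8.04, 8.22 and 8.20 in p53, and 7.59, 7.53 and 8.0 in wt embryos. Its difference from p53 was 1.54 ± 0.42 (adjusted p = 0.463 in limma), 2.22 without double replicate 3 and 0.17 without double replicates 1 and 2. The adaptor Myd88 differed by 0.52, the ubiquitin ligase Traf6 by -0.30 and the transcription factor Irf1 by 0.30. Without double replicate 1 these were 0.33, -0.10 and 0.09. Irf7, below the filter and named after its values were seen, read 6.67, 6.11 and 3.79 in double embryos against 3.65 to 3.86 in the other genotypes.

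The list of DNA sensors also holds subunits of RNA polymerase III and of Ku. Of its 17 tested genes 14 were lower in double than in p53 embryos, where 7021 of all 13501 genes were. Of these 14, 4 had an unadjusted p under 0.05 (5.67% of all genes were lower at that level), and the median difference was -0.19. Without double replicate 3 the fit called 5 of the 17 lower (6.18% of all genes) and 1 higher. Their mean over the list relative to wt was -0.38, -0.11 and -0.01 in double replicates 1, 2 and 3. The named genes were the RNA polymerase III subunits Polr3c (-0.31) and Polr3b (-0.39) and the Ku subunit Xrcc6 (-0.25). Without double replicate 1 these differences were -0.32, -0.20 and -0.16. Cgas, the cytosolic DNA sensor that makes the messenger for STING, differed by 0.41, and by 0.15 without double replicate 1. It read 6.64, 5.99 and 5.70 in double embryos against 5.57 to 5.91 in the other genotypes. Its adaptor gene Sting1, named after its values were seen, read 6.64, 6.47 and 6.44 in double embryos against 6.29 to 6.69 in the other genotypes. The 3 genes higher in double than in p53 embryos were Cgas, Ifi203 (0.07, also named after its values were seen) and Sting1 (0.05).

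Interferon receptors and the ISGF3 factors were higher in double than in p53 embryos for 5 of 6 tested. An unadjusted p under 0.05 held for 2 (10.7% of all genes), and without double replicate 3 the fit called 2 higher (6.83% of all genes). Irf9, the DNA-binding part of ISGF3, read 9.52, 9.22 and 6.85 in double embryos against 6.36 to 6.65 in the other genotypes (difference from p53 1.97 ± 0.50, adjusted p = 0.463 in limma), and differed by 2.81 without double replicate 3 and by 0.29 without double replicates 1 and 2. Stat2 was at least 1.03-fold higher, and the receptor genes Ifnar2 and Ifnar1 differed by 0.16 and 0.10, or by -0.01 and 0.05 without double replicate 1. Of 9 measured interferon genes only 2 passed the filter, and neither had an unadjusted p under 0.05 in double against p53 embryos. In double against acd embryos Ifnz did, with a difference of 0.26 (adjusted p = 0.371 in limma). Ifna9, below the filter and named after its values were seen, read 4.65, 4.78 and 4.63 in double embryos against 4.29 to 4.58 in the other genotypes. All 3 double embryos were above the 9 others, and all 12 values lay below the array medians. Ifnb1, named after its values were seen, read 4.44, 3.95 and 3.96 in double embryos, 3.87, 4.48 and 3.65 in acd, 4.02, 3.92 and 4.15 in p53, and 3.92, 3.99 and 4.12 in wt embryos, all below the array medians and overlapping.

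In double against p53 embryos 10.7% of all genes had an unadjusted p under 0.05. The remaining lists are too short for their counts to be set apart from that share. Of PKR partners and eIF2 alpha kinases 5 of 10 tested were higher and 1 had an unadjusted p under 0.05, Ppp1r15a (0.30, and 0.19 without double replicate 1), which brings back translation by dephosphorylating eIF2 alpha. Of ZBP1 partners in cell death 2 of 4 were higher and 0 had an unadjusted p under 0.05, with Casp8 at 0.33 and Ripk3 at 0.20, or 0.08 and 0.14 without double replicate 1. Of 13 nucleases and other brakes 4 were higher and 0 had an unadjusted p under 0.05, with Samhd1, a nucleotide hydrolase, at -0.26, or -0.04 without double replicate 1. Of 4 endosomal receptors and chaperones 2 were higher and 0 had an unadjusted p under 0.05.

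Macrophage markers were high in the same 2 embryos. In double against p53 embryos 14 of 14 tested markers were higher, and the median difference was 0.83. An unadjusted p under 0.05 held for 7 (10.7% of all genes), and 0 were called by limma. For 13 of the 14, double replicates 1 and 2 were both above the other 10 arrays (11.5% of all genes). Without double replicate 3 the fit called 13 higher (6.83% of all genes). Csf1r, the macrophage growth factor receptor, read 8.85, 8.49 and 7.21 in double, 7.63, 7.56 and 7.0 in acd, 7.79, 7.86 and 7.43 in p53, and 7.88, 7.59 and 7.85 in wt embryos. The complement gene C1qb read 8.67, 7.57 and 6.77 in double embryos against 6.51 to 6.99 in the other genotypes. Csf1r and C1qb differed from p53 embryos by 0.49 and 0.87, or by 0.16 and 0.37 without double replicate 1. With double replicate 3 as the only double embryo they differed by -0.49 and -0.03. On the mean of all 3 double embryos, C1qa, Adgre1 and Ptprc were at least 1.87-fold, 1.21-fold and 1.09-fold higher than in p53 embryos. The summed linear level of all 17 markers ran from 834 to 3493 in double, 816 to 1102 in acd, 889 to 1170 in p53 and 951 to 1120 in wt embryos. Their part in the sensor values was not tested. Of erythroid markers 7 of 7 were higher in double than in p53 embryos, 0 with an unadjusted p under 0.05. Against wt 7 of 7 and against acd 2 of 7 were higher, and in p53 against wt 7 of 7 were lower. Against p53, 5 of 6 heart and 4 of 6 neural tube markers were lower, 2 and 1 at that level (10.7% of all genes). The heart mean relative to wt was -0.22, -0.16 and -0.46 in double replicates 1, 2 and 3, lowest in replicate 3.

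The order of the 2 embryos was not the same in every list. Relative to wt, the 7 sensors averaged 1.12 in double replicate 1 and 1.33 in double replicate 2. Interferon-stimulated effectors averaged 3.52 and 3.06, the OAS arm 1.30 and 1.0, and macrophage markers 1.45 and 0.98. In double replicate 3 these 4 means were 0.01, 0.20, -0.01 and -0.23. With 1 embryo each, the difference in order has no replicate check. The effector mean was 0.24, 0.41 and 0.20 in acd, -0.10, 0.12 and 0.04 in p53, and -0.04, -0.05 and 0.09 in wt embryos. In acd against wt embryos 6 of 6 effectors were higher, 0 with an unadjusted p under 0.05 in limma (1.77% of all genes).

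**Figure D4:**
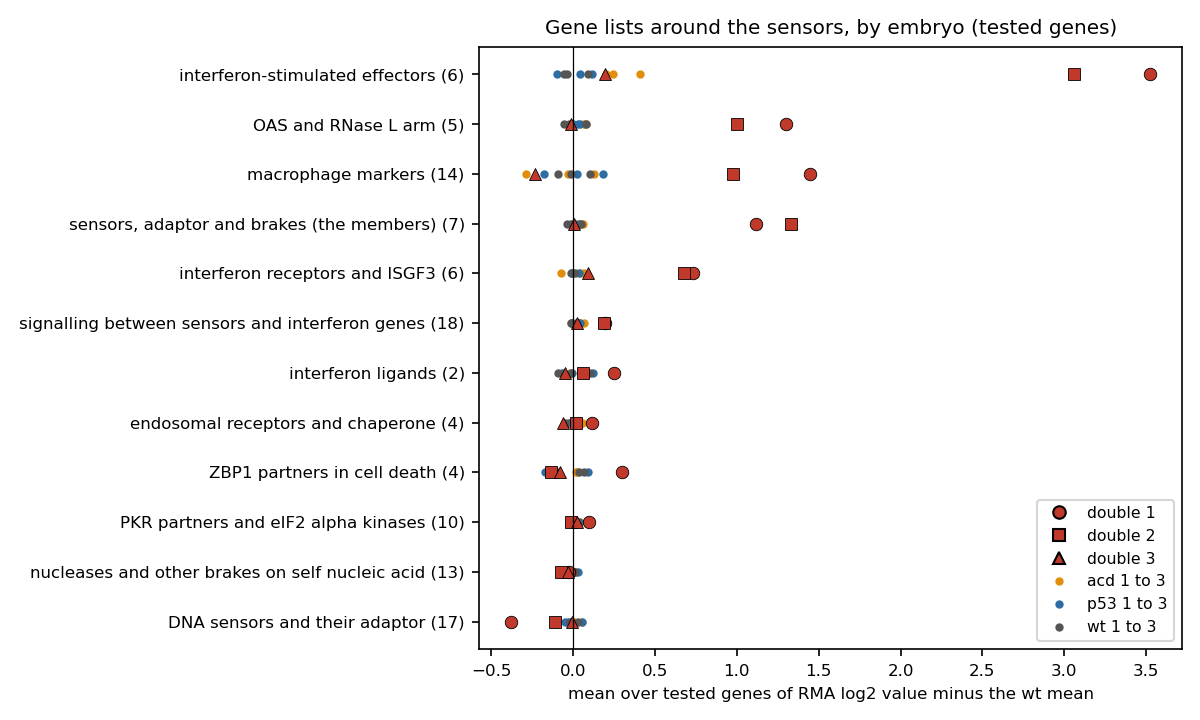
Mean over the tested genes of a list (number in brackets) of the RMA log2 value minus the wt mean (x axis), for each list (y axis) and embryo. Large symbols are the 3 double embryos and small dots the acd, p53 and wt embryos. Effectors of interferon lie furthest right in double replicates 1 and 2 (3.52 and 3.06). Furthest left in double replicate 1 (-0.38) lies the list of DNA sensors, which includes RNA polymerase III and Ku subunits.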

How the data were processed

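RNA of 12 whole embryos was labelled from 250 ng of total RNA and hybridised to 1 array each, per the labels' protocols. The deposited values are log2 values that the authors made from the scanner files with justRMA, per the series' design text, which also names BRB-ArrayTools 4.4.0 for the choice of genes. RMA makes the distributions of the arrays near equal, which hides differences in total RNA between embryos. Values ran from 2.60 to 14.7 and were used as deposited. No detection call was given, and the number of arrays limits the precision. The platform annotation gave 1 symbol for 34945 of 45101 probe sets and several for 932.

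Each gene was read from its probe set with the highest mean. A gene was tested where that probe set exceeded the 40th percentile of its array (4.62 to 4.72) in at least 3 arrays, which held for 13501 of 18193 genes. A mean per genotype was fitted to 12 arrays in R 4.3.3 by limma 3.58.1, with statmod 1.5.0 (8 residual degrees of freedom, two-sided moderated tests), with Benjamini-Hochberg adjustment over all genes tested and a threshold of 0.05. Where a genotype mean lay below the array median, a difference is given as a bound, the brighter mean against the higher of value and median on each dimmer array, or not at all where both lay below. Such a bound allows for low signal and not for the spread between embryos. Symbols and promoter windows came from RefSeq, assembly GRCm38.p6.

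The genes and lists were chosen with earlier results of these data known, so no list is tested. Named are all genes of the sensor list; up to 4 tested genes of each other list with the smallest p in double against p53; 5 defining macrophage markers; and the 3 nearest profiles of each sensor gene that spanned over 1 log2 unit. Hba-x, Tnnt2 and Sox2 were named after their values were seen. The alternatives were other filters, probe set rules, normalizations and variance models, array weights, fewer genotypes in the fit, a replicate block, and leaving out arrays; for genes of the other lists, arrays were left out as a choice made after seeing the data. Tested on simulated data for double against p53 (13501 genes, 200 changed), the fit recovered 89% of changes of 1 log2 unit and 100% of changes of 2, with 7 false calls. The draw gave each gene the same spread in every genotype. In the data the median SD was 0.209 in double and at most 0.0953 in the other genotypes. The recovery holds for the spread drawn there, and changes of that size in 2 of 3 embryos alone were not simulated.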

Additional observations from a re-analysis of the deposited data

How the results depend on the processing

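Of 893 values of single genes by comparison and setting, 833 stayed on their side of the threshold and moved by less than the spread between replicates, 18 passed it in the setting alone and 42 moved further. No gene of the list was called with all arrays, and 33 of these uncalled values turned sign, such as Ifih1 in double against p53 (-0.14 without double replicates 1 and 2 together). All 18 came from leaving out double replicate 3. Some differences could not move, such as acd against wt when a double embryo was left out, or any under array weights per genotype. Leaving out 1 array at a time, the number of the 7 genes called ran from 0 to 5 in double against p53, acd and wt embryos and from 0 to 3 in the interaction, and was 0 throughout in acd and p53 against wt. In the other settings run it was 0 in each comparison. The median difference in double against p53 ran from 0.16 to 0.46 with 1 array left out, and from 0.02 (without double replicates 1 and 2 together) to 0.54 (mean of all probe sets) in the other settings. The filter decides which genes are tested: at the 60th percentile 4 of them were left, without Ddx58, Ifih1 and Zbp1. Whether the replicate numbers pair the embryos is not settled here. The deviations of 18 same-numbered pairs correlated at -0.23 to 0.39, 7 of them above 0.1. Between the replicates 3 of double, acd and p53 they correlated at 0.21 to 0.39, and with wt replicate 3 at -0.16 to -0.03. With wt replicate 2, which bears another number, the same embryos correlated at 0.23 to 0.26. With the replicate number as a block, 0 genes were called (Ifih1 adjusted p = 0.425 in limma). The median of 0.32 and the Ifih1 difference of 2.32 cannot move under the block, as each genotype holds every replicate number once. Low signal limits Ddx58, Dhx58, Tlr3 and Zbp1, and 3 embryos of unlike values limit all comparisons with double.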
